A study of Bos taurus with 34 samples.

Results

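The miR-2284 and miR-2285 family was taken as every row whose name begins with miR-2284 or miR-2285, which gave 128 of the 800 mature miRNA names counted in these bovine libraries (16%). Of these, 29 carried a miR-2284 name and 99 a miR-2285 name. The names alone chose the members, and no measured value entered the choice. The libraries came from the cell-free small RNA of blood of 17 dairy cows. Of these, 6 were healthy and 11 had subclinical endometritis (SCE), in which the lining of the uterus is inflamed but the cow shows no outward sign. Status rested on endometrial cytology and biopsy, per the series' design text, and neither a treatment nor a transgene is named for any group. Each cow was sampled at an earlier and a later time after calving, called day 25 and day 45 in the labels and 21 and 44 days in the design text. The fluid is named serum in the labels and plasma in the design text. The day-25 file of healthy cow 3 repeated the counts of its day-45 file and was left out, so 33 libraries remained: 5 from healthy cows at day 25, 6 from healthy cows at day 45, and 11 from SCE cows at each day.

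MicroRNAs are short RNAs that guide Argonaute proteins to messenger RNAs, mainly through the seed near their 5′ end. The miR-2284 and miR-2285 family is a large group of closely related miRNAs found in cattle and other ruminants, with many gene copies spread over the genome. Because its members are so alike, a read can match several of them, and counts of single names depend on how such reads were assigned. The sources used here do not give that step. Mature sequences of the members were not analysed here.

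Library totals ran from 678389 to 28872153 counts. Both libraries of SCE cow 10 were the shallowest, with 1343401 counts at day 25 and 678389 at day 45. All 16 miRNAs listed as markers of red blood cells, platelets, white blood cells and liver were counted in the libraries. The summed share of the red blood cell list (miR-486, miR-451, miR-144 and miR-363) had a median of 45.4% in healthy cows at day 25 and 48.6% at day 45, against 11.5% and 36.9% in SCE cows. This share was mostly miR-486, so the list mainly reflects that miRNA. The medians of miR-486 alone were 45.3% and 48.0% in healthy cows at day 25 and day 45, against 10.8% and 36.5% in SCE cows. The white blood cell list had medians of 0.953% and 1.30% in healthy cows against 3.58% and 2.89% in SCE cows, the platelet list 0.217% and 0.329% against 0.518% and 0.443%, and the liver list 4.05% and 4.15% against 2.83% and 2.61%. The part of these sources in the family's levels was not tested. The single miRNA miR-486 took between 3.95% and 81.1% of a library. Levels below are therefore counts per 1000000 counts (CPM) after normalisation by trimmed means of M values (TMM), which sets libraries level on the bulk of miRNAs rather than on the total, unless the library total is named.

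Many of the family's names were present in plasma or serum, but most were scarce. A count was found for 127 of the 128 members in at least 1 library, miR-2285ay being the exception, and 24 members (18.75%) were counted in every library. Another 35 members, miR-2285ay included, had fewer than 10 counts over all 33 libraries. The number of members counted in a library ranged from 28 in the shallowest to 103. Among the other cattle-discovered miRNAs whose numbers directly follow the family's, 7 of 145 names (4.83%) were counted in every library, and among the recently annotated bovine names with the highest numbers, 8 of 95 (8.42%). All remaining names, largely miRNAs shared with other mammals, reached 208 of 432 (48.1%). By library total, the whole family made up between 0.0678% and 0.267% of a library, with a median of 0.149%. The median was 0.0473% for the names that directly follow the family and 0.0335% for the recently annotated ones.

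The family's counts were concentrated in a few members. miR-2285k held 27.1% of all family counts, miR-2284x 23.9% and miR-2284z 19.1%, and together these 3 made up between 60.3% and 79.5% of the family in a single library. The 12 members of highest mean level made up between 90.9% and 96.4%. The remaining 9 of those 12, in falling order of mean CPM by library total, were miR-2284ab at 89.2, miR-2285bc at 44.4, miR-2284w at 41.2, miR-2285y at 34.6, miR-2285z and miR-2285q at 33.4 each, miR-2284aa at 26.3, miR-2285t at 20.8 and miR-2285aa at 17.1. The order at the top was not fixed: miR-2285k led in 14 libraries, miR-2284x in 11 and miR-2284z in 8. Mature miRNAs are of nearly equal length, so these counts need no length correction, but ligation can favour some sequences over others.

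**Figure D1:**
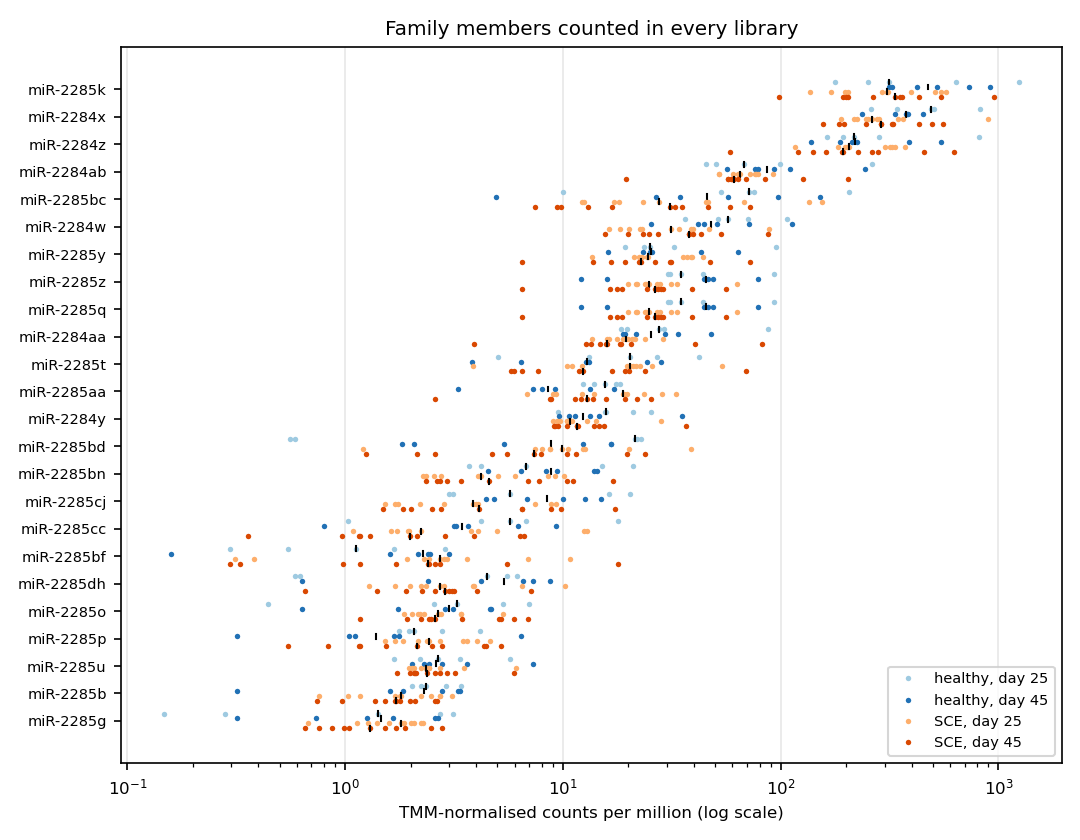
TMM-normalised CPM (log scale) of the 24 members counted in every library, 1 row per member, 1 point per library, coloured by group, with a black bar at each group's median. miR-2285k, miR-2284x and miR-2284z have the highest medians over the 33 libraries (326, 323 and 212, against 67.7 for miR-2284ab). Their ranges overlap that of miR-2284ab, and the points of healthy and SCE libraries overlap in each row.

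miR-2285k varied widely among cows. In healthy cows at day 25 it stood at 177, 252, 638, 316 and 1246 TMM-normalised CPM (cows 1, 2, 4, 5 and 6), and at day 45 it ranged from 315 to 912 with a median of 474. The SCE libraries ranged from 137 to 574 at day 25 (median 309) and from 98.0 to 950 at day 45 (median 336). The highest value of all was healthy cow 6 at day 25, and that cow's day-45 library stood at 326.

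miR-2284x was steadier. Healthy cows at day 25 had levels of 821, 489, 342, 504 and 259, and at day 45 levels between 237 and 451, with a median of 378. SCE libraries lay between 189 and 891 at day 25 (median 262) and between 156 and 556 at day 45 (median 289). The highest SCE value, 891, belonged to cow 7. Over all 33 libraries the highest level of miR-2284x was 5.69 times the lowest, against 12.7 times for miR-2285k.

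miR-2284z was highest in 3 libraries. Healthy cows at day 25 stood at 216, 193, 818, 164 and 283, and at day 45 at 137, 187, 542, 212, 224 and 388 (cows 1 to 6). SCE libraries ranged from 116 to 374 at day 25 (median 204) and from 58.5 to 624 at day 45 (median 194). These were healthy cow 4 at day 25, SCE cow 8 at day 45 and healthy cow 3 at day 45. In cow 4 and cow 8 the other sampling was unremarkable, at 212 and 197, so neither cow was high at both samplings.

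miR-2285bc spread more than any other of the 12 leading members, with a highest level 41.9 times the lowest. Levels in healthy cows at day 25 were 207, 75.3, 10.0, 71.9 and 53.5, and at day 45 they were 151, 34.6, 4.94, 96.9, 57.2 and 26.9. SCE libraries ran from 12.3 to 154 at day 25 (median 27.5) and from 7.48 to 72.1 at day 45 (median 31.2). The same libraries that were high in miR-2284z were low in miR-2285bc: healthy cow 4 at day 25 had 10.0, healthy cow 3 at day 45 had 4.94, and SCE cow 8 at day 45 had 7.48 after 154 at day 25. This pattern was noticed in the values and was not tested by library. With the counts of each cow summed, the correlation of miR-2284z with miR-2285bc was weak (r = -0.39, rho = -0.25, adjusted permutation p = 0.33 for r, 17 cows).

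Less abundant members reached larger spreads. The highest level was 69.3 times the lowest for miR-2285bd and 113 times for miR-2285bf, while miR-2284y varied by only 4.09 times. For miR-2285bd, healthy cows 1, 2 and 5 at day 25 stood at 22.0, 21.5 and 22.9, and cows 4 and 6 at 0.590 and 0.560. For miR-2285bf the highest level was 17.9, in SCE cow 9 at day 45, and the same cow stood at 10.8 at day 25, the highest of its group. The lowest miR-2285bf level, 0.159 in healthy cow 3 at day 45, was 1 count, so such low values carry large counting error.

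Most loci of the family lie within the span of another gene. The RefSeq gene table, on assembly ARS-UCD2.0, holds 191 loci of the family among 1032 miRNA loci, and 128 of the 191 (67.0%) lie within the span of another gene. The table gives spans without exons, so exonic and intronic positions were not separated. Strand was not used, so a locus on the opposite strand counts as inside a gene or as overlapping another locus. The share for other miRNA loci was not computed. A locus was found for 121 of the 128 members, and 22 members had more than 1. miR-2284z, miR-2284y and miR-2285n had 7 loci each, and miR-2285k, miR-2285o and miR-2285m had 5. The counts of such names sum over copies that cannot be told apart. Among single-locus members, miR-2284x lies in TIAM1, an exchange factor for the GTPase Rac, miR-2284ab in AFF1, a subunit of a transcription elongation complex, and miR-2285bc in ORC1, a subunit of the origin recognition complex. miR-2284w lies in DOCK11, an exchange factor for Cdc42, miR-2285t in FCGR2B, the inhibitory Fc receptor of B cells and myeloid cells, and miR-2285aa in ERCC3, a helicase of the transcription factor TFIIH. These genes were named after the members' values had been seen, and the files hold no messenger RNA.

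Some names of the family had equal or nearly proportional counts. miR-2285z and miR-2285q had identical counts in all 33 libraries, 12243 each in total, and their loci overlap inside SREK1. miR-2284z and miR-2285y, which overlap inside PLEKHA5 at 1 of the 7 miR-2284z loci, kept a ratio of 8.59 that stayed between 8.02 and 9.57 over all libraries. For each pair of the 24 always-counted members, the scatter of the ratio was set against counting noise, with 1 as the value that counting noise alone gives. The ratio of miR-2284z to miR-2285y scored 0.334, less than independent counting of reads would give. miR-2285bn to miR-2285cj scored 0.632 (ratio between 0.936 and 1.57) and miR-2284y to miR-2285u scored 0.864 (ratio 4.90, range 3.50 to 9.47). Among the 276 pairs these and the identical pair were the 4 that scored below 1, the next pair scored 1.77, and the median was 24.6.

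Of those 4 pairs, 3 have overlapping loci, and miR-2285cj has no locus in the table. miR-2284y also overlaps miR-2285o at 1 locus, inside RBBP8, but that ratio was not held: it ranged from 1.75 to 55.5 and scored 6.68. Values below for miR-2285q, miR-2285y, miR-2285cj and miR-2285u follow those of their partners to within the stated scatter and add little to them. How reads were shared between the names was not tested.

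**Figure D2:**
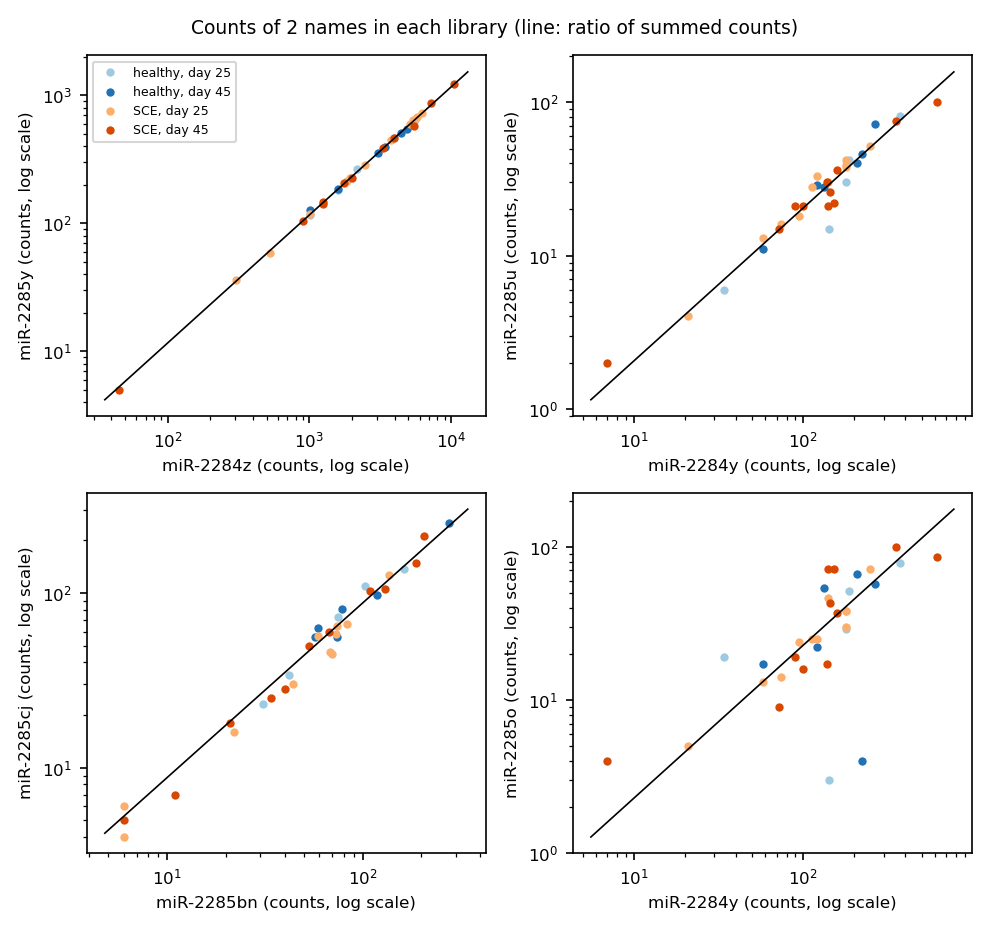
Counts of one name against another (both on log scales), 1 point per library, coloured by group, with a line at the ratio of the summed counts. miR-2285y follows miR-2284z closely over the whole range, the pairs miR-2284y with miR-2285u and miR-2285bn with miR-2285cj scatter about as much as counting noise, and miR-2285o departs from miR-2284y by far more.

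Across cows the family did not move as 1 block. Correlations were computed over 17 cows from the log2 TMM-normalised level of each cow's summed counts. They covered the 253 pairs among 23 always-counted names, with miR-2285q left out as a copy. The median r was 0.06. After Benjamini-Hochberg adjustment over the 253 pairs, 29 had a permutation p under 0.05 for r, 23 positive and 6 negative. The smallest p that the permutations can give is 1e-05, which is 0.00028 after adjustment.

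Small groups of members were correlated with each other. In the first, miR-2284z correlated with miR-2284aa (r = 0.88, rho = 0.84, adjusted permutation p = 0.00028 for r and 0.0016 for rho), and miR-2284aa with miR-2284ab (r = 0.90, rho = 0.81, adjusted permutation p = 0.00046 for r). The correlation of miR-2284z with miR-2284aa was 0.85 without the 2 cows farthest from the median, 0.91 within SCE cows and 0.94 within healthy cows. In the second, miR-2285k correlated with miR-2285bn (r = 0.89, rho = 0.86, adjusted permutation p = 0.00028 for r), with 0.83 when the 2 farthest cows were left out. In the third, miR-2285bc correlated with miR-2285cc (r = 0.96, rho = 0.95, adjusted permutation p = 0.00028 for r and 0.00084 for rho), with 0.93 without the 2 farthest cows, 0.92 within SCE cows and 0.98 within healthy cows. miR-2284x with miR-2284w had r = 0.87 and rho = 0.82 (adjusted permutation p = 0.00046 for r), and 0.84 without the 2 farthest cows. With library totals in place of TMM these r values were 0.92, 0.91, 0.89, 0.95 and 0.71 in the same order.

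Not all of the 29 pairs kept their size under other settings. Among the 23 positive pairs r ran from 0.66 to 0.998, from 0.25 to 0.998 without the 2 farthest cows and from 0.36 to 0.999 with library totals. miR-2285bc with miR-2285o, for example, had r = 0.66 (rho = 0.48, adjusted permutation p = 0.036 for r), which was 0.25 without the 2 farthest cows. Among the 6 negative pairs r ran from -0.74 to -0.62, from -0.55 to -0.32 without the 2 farthest cows and from -0.22 to 0.03 with library totals. miR-2285p with miR-2285u had r = -0.74 (rho = -0.56, adjusted permutation p = 0.011 for r), which became -0.55 without the 2 farthest cows and -0.12 with library totals. For miR-2284z with miR-2285t, r = -0.66 (rho = -0.63, adjusted permutation p = 0.031 for r) became -0.44 without the 2 farthest cows and -0.22 with library totals.

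**Figure D3:**
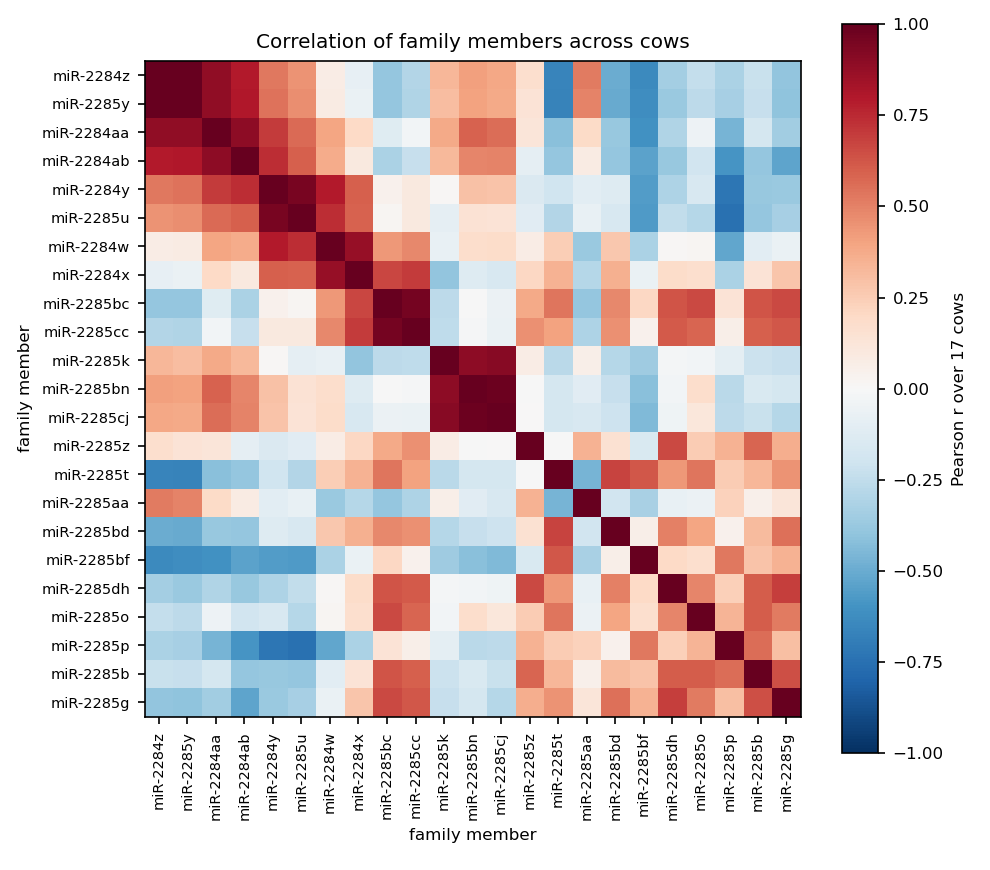
Pearson correlation over 17 cows of the log2 TMM-normalised level, from each cow's summed counts, of 23 family members (both axes). Colours run from blue (-1) through white (0) to red (1). Red blocks join miR-2284z, miR-2285y, miR-2284aa and miR-2284ab, then miR-2284y, miR-2285u, miR-2284w and miR-2284x. Others join miR-2285bc with miR-2285cc, and miR-2285k with miR-2285bn and miR-2285cj. Further red and blue cells lie outside these blocks.

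Outside the family, the miRNA of highest r among 369 non-members was sought for each single member (8487 pairs, adjusted over all of them). The miRNAs in this paragraph were picked by their r, after the values had been seen. miR-2284z followed miR-221 (r = 0.95, rho = 0.91, adjusted permutation p = 0.0045 for r), at 0.94 without the 2 farthest cows, 0.93 within SCE cows and 0.98 within healthy cows. miR-2285k followed miR-10a (r = 0.87, rho = 0.86, adjusted permutation p = 0.0045 for r), at 0.77 without the 2 farthest cows. miR-2285bf followed miR-132 (r = 0.93, rho = 0.88, adjusted permutation p = 0.0045 for r), at 0.89 without the 2 farthest cows. For miR-2284x the highest r was with miR-92a (r = 0.86, rho = 0.81, adjusted permutation p = 0.0061 for r), at 0.81 without the 2 farthest cows.

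miR-2285bc followed miR-451, a miRNA abundant in red blood cells (r = 0.90, rho = 0.89, adjusted permutation p = 0.0045 for r). This r was 0.84 without the 2 farthest cows, 0.85 within SCE cows, 0.95 within healthy cows and 0.88 with library totals. Against miR-486, the other main red blood cell miRNA, miR-2285bc had r = 0.64 (rho = 0.67, adjusted permutation p = 0.082 for r). miR-2284w had r = 0.75 with miR-486 (rho = 0.79, adjusted permutation p = 0.028 for r), but 0.13 with library totals. The miR-451 to miR-23a ratio, used as a gauge of red blood cell RNA, had a median of 2.34 over the 33 libraries on the log2 scale and ran from -0.49 to 5.31. Its group medians were 2.49 and 2.65 in healthy cows at day 25 and day 45, against 1.54 and 2.04 in SCE cows. In the 3 libraries named above for low miR-2285bc it was -0.35 in healthy cow 4 at day 25, 1.24 in healthy cow 3 at day 45 and 0.50 in SCE cow 8 at day 45. In healthy cow 1 at day 25, where miR-2285bc was highest, it was 5.31. Other libraries had ratios as low, such as SCE cow 9 at day 45 with -0.33 and a miR-2285bc level of 13.0, and SCE cow 14 at day 25 with -0.49 and 17.3. The median level of miR-2285bc over the 33 libraries was 34.6. By the miR-486 to miR-23a ratio (log2) the same 3 libraries were not low, at 8.42, 10.04 and 8.93 against a median of 8.75. That ratio was 12.4 in healthy cow 1 at day 25, 3.89 in SCE cow 9 at day 45 and 3.80 in SCE cow 14 at day 25. The part of red blood cell RNA in these levels was not tested beyond the fits with these ratios as covariates.

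The direction of the summed family level between healthy and SCE cows depended on the scale. By library total the family stood at 0.131% ± 0.0543 of counts (SD, n = 5) in healthy cows and 0.169% ± 0.0500 (SD, n = 11) in SCE cows of day 25, and at 0.124% ± 0.0470 (SD, n = 6) and 0.151% ± 0.0486 (SD, n = 11) at day 45. The median of SCE cows was 1.52 times that of healthy cows at day 25 and 1.25 times at day 45 by library total, but 0.646 and 0.706 times after TMM, and 0.846 and 0.935 times when miR-486 was taken out of the total. After TMM the 5 healthy libraries at day 25 summed to 1963, 1390, 2483, 1450 and 2342 CPM (cows 1, 2, 4, 5 and 6), and the SCE libraries ranged from 961 to 1922 with a median of 1268. All 11 SCE libraries lay below the healthy median and 8 lay below every healthy library, whereas by library total 1 of 11 lay below the healthy median. TMM factors lay between 0.395 and 1.03 in healthy libraries at day 25 and between 0.425 and 1.87 in SCE libraries. The median shares of the red blood cell, white blood cell and platelet lists given above differed between the statuses too, but their ranges overlapped and no test was run. Fewer cells releasing a miRNA and less miRNA released per cell cannot be told apart in such samples.

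**Figure D4:**
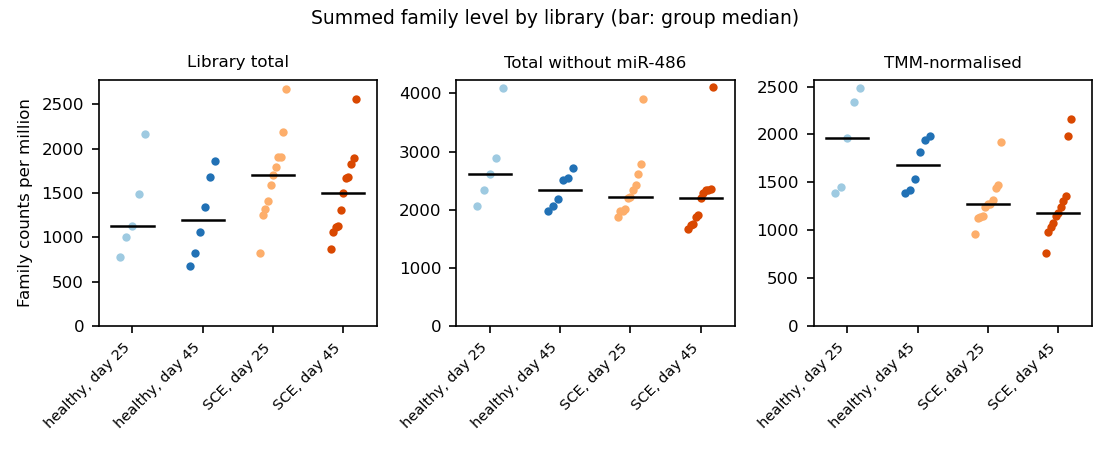
Summed family CPM in each library by group, scaled by the library total (left), by the total without miR-486 (middle) and after TMM normalisation (right), with a bar at the group median and axes from 0. SCE medians lie above the healthy medians on the left and below them on the right, so the direction flips with the scale.

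No member passed the test between SCE and healthy cows at day 25. Of 372 miRNAs that passed the filter on low counts, 39 were members, and none had an adjusted p under 0.05 with edgeR's quasi-likelihood test, where 0.269% of all tested miRNAs did. At an unadjusted p under 0.05 there were 3 members of 39, against 20.2% of all miRNAs tested. DESeq2 gave an adjusted p to 69 of 114 members and called none of them, where it called 2.68% of all miRNAs with an adjusted p, and it had 13 members at an unadjusted p under 0.05, against 14.7% of all. The fitted values lay mostly on the lower side in SCE cows, 31 of 39 (79.5%) against 52.2% of all tested miRNAs. Names that share counts enter this number separately. The members had a median log2 fold change of -0.46 where the median of all tested miRNAs was -0.05. With library totals 35 of 39 lay on the higher side (median 0.53), but the median of all tested miRNAs moved to 0.88, and the difference of the members' median from that of all was -0.41 under TMM and -0.34 with library totals.

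The 3 members with an unadjusted p under 0.05 at day 25 were miR-2284aa, miR-2284w and miR-2285cj. miR-2284aa stood at 29.0, 18.5, 87.7, 19.7 and 27.7 TMM-normalised CPM in healthy cows and between 13.6 and 28.8 (median 19.4) in SCE cows. The ranges overlapped, 10 of 11 SCE values lay below the healthy median, and the single high healthy value was cow 4. The log2 fold change was -0.93 (SE 0.37, adjusted p = 0.185), and it was 0.01 with library totals.

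miR-2284w stood at 107, 51.6, 57.5, 70.5 and 36.4 in healthy cows at day 25 and between 16.2 and 88.3 (median 31.4) in SCE cows. Of the SCE values, 7 of 11 lay below every healthy cow, and the highest, cow 7, lay within the healthy range. Its log2 fold change was -0.96 (SE 0.40, adjusted p = 0.186). At day 45 the healthy values of miR-2284w were 51.3, 113, 71.5, 44.4, 41.8 and 25.3, the SCE values 15.6 to 87.4 (median 37.8), and the log2 fold change -0.59 (SE 0.41, adjusted p = 0.658). Over both days it had the lowest p of the members, with a log2 fold change of -0.68 (SE 0.33, adjusted p = 0.297), which became 0.03 with library totals.

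miR-2285cj, whose counts follow miR-2285bn, stood at 3.14, 3.02, 16.2, 5.75 and 20.4 in healthy cows at day 25 and between 1.52 and 9.34 (median 3.88) in SCE cows. Its healthy values fell into a high pair, cows 4 and 6, and 3 lower ones inside the SCE range. The log2 fold change was -1.18 (SE 0.54, adjusted p = 0.230). The next lowest p belonged to miR-2285q and miR-2285z, which share their counts. They stood at 43.9, 35.02, 30.4, 31.2 and 93.5 in healthy cows and between 19.9 and 63.2 (median 25.0) in SCE cows, with 8 of 11 SCE values below every healthy cow and a log2 fold change of -0.73 (SE 0.36, adjusted p = 0.251), or 0.33 with library totals.

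The 3 leading members had wide errors in the same comparison. The log2 fold change at day 25 was -0.70 for miR-2285k (SE 0.44, adjusted p = 0.366), -0.63 for miR-2284x (SE 0.38, adjusted p = 0.345) and -0.45 for miR-2284z (SE 0.38, adjusted p = 0.521) under TMM, and with library totals these were 0.39, 0.21 and 0.52. A few members lay on the other side: miR-2285aa, for example, had values of 18.3, 12.3, 17.6, 13.9 and 15.7 in healthy cows and 6.81 to 32.95 (median 18.8) in SCE cows, with 6 of 11 SCE values above every healthy cow and 4 below every one. Its log2 fold change was 0.13 (SE 0.40, adjusted p = 0.869).

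**Figure D5:**
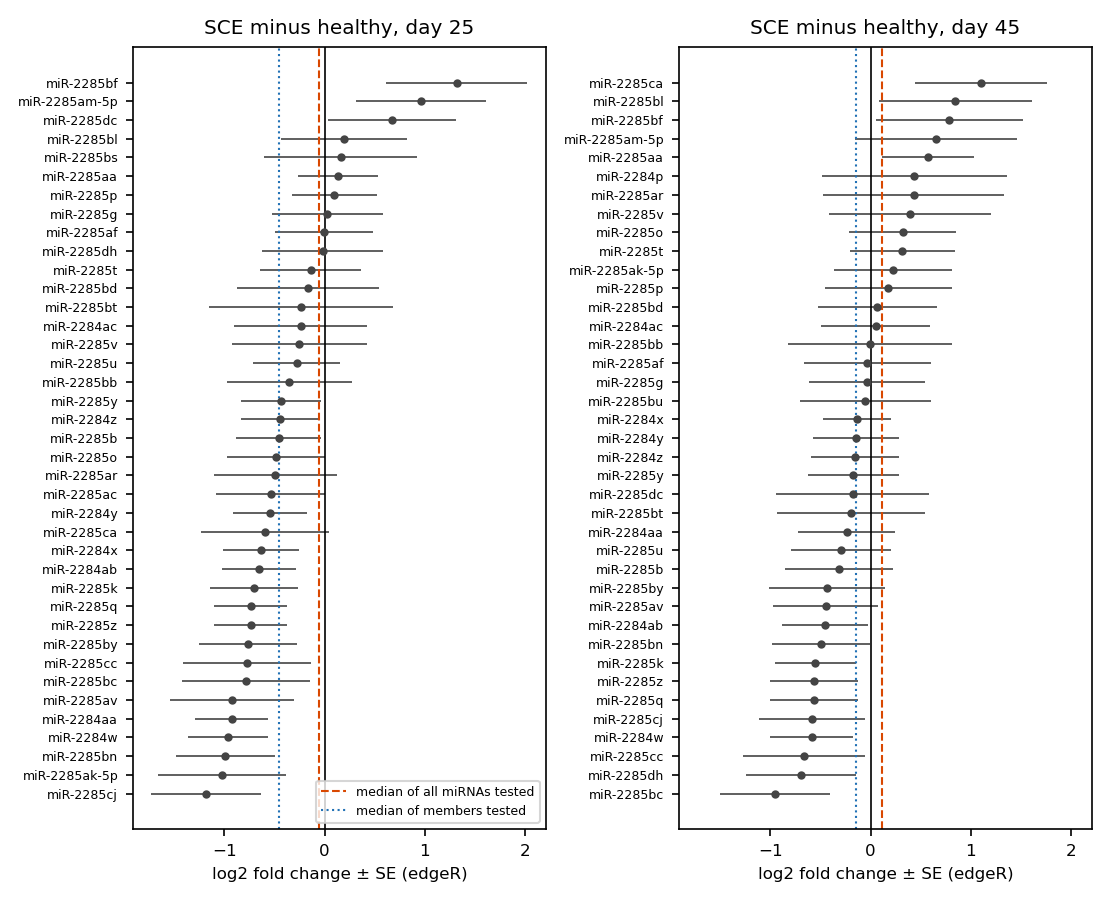
Log2 fold change of SCE against healthy cows with its standard error (edgeR after TMM) for the 39 members tested at day 25 (left) and the 39 at day 45 (right), with lines at 0, at the median of all miRNAs tested (dashed) and at the median of members (dotted). Members lie mostly below 0 after TMM, none passed an adjusted p of 0.05, and with library totals most lie above 0.

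At day 45 no member passed the test between statuses. None of 39 members among 382 tested miRNAs passed the adjusted threshold (edgeR, 0% of all tested), none had an unadjusted p under 0.05 against 10.2% of all tested, and DESeq2 called none of 123 members (0.134% of all), with 2 at an unadjusted p under 0.05 (6.68% of all). Fitted values were lower in SCE cows for 25 of 39 (64.1%, against 42.9% of all tested), with a median of -0.14 against 0.11 for all tested. With library totals 34 of 39 were higher, with a median of 0.45 against 0.71. Without healthy cow 3 the TMM median was 0.01. The lowest p belonged to miR-2285bc, given by cow above, with 8 of 11 SCE values below the healthy median and overlapping ranges (log2 fold change -0.95, SE 0.55, adjusted p = 0.574). miR-2285ca, which lies in TRIOBP, had 1.30, 0, 0.796, 2.03, 2.82 and 3.01 in healthy cows and 0.840 to 6.77 (median 2.73) in SCE cows, with 5 of 11 SCE values above every healthy cow and a log2 fold change of 1.10 (SE 0.66, adjusted p = 0.611).

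Over both days, with each cow's counts summed, 49 members were among 418 miRNAs tested. None passed the adjusted threshold in edgeR (0.239% of all tested did), and 1 had an unadjusted p under 0.05 against 16.5% of all tested. DESeq2 gave an adjusted p to only 25 of 127 members and called none of these (5.24% of all with an adjusted p), with 4 members at an unadjusted p under 0.05 (13.9% of all). The median log2 fold change was -0.21 under TMM and 0.62 with library totals, where the medians of all tested were 0.04 and 0.77. miR-2285bc had a log2 fold change of -0.89 (SE 0.50, adjusted p = 0.345). It was 0.12 when the miR-451 to miR-23a ratio (log2) entered the fit as a covariate, and 0.32 with the miR-486 to miR-23a ratio. miR-2285bf lay on the other side with 0.999 (SE 0.62, adjusted p = 0.367), and at -0.25 with the miR-486 ratio as a covariate.

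Between the samplings, no member passed the test in either status. In healthy cows 33 members were among 345 miRNAs tested and none passed the adjusted threshold (edgeR, 0% of all tested) or an unadjusted p under 0.05, which 2.90% of all tested did. In SCE cows 31 members were among 346, again with none at the adjusted threshold (0% of all tested) and none at an unadjusted p under 0.05, against 4.05% of all tested. DESeq2 called none in either status (0% of all), with 1 member at an unadjusted p under 0.05 in each, against 3.45% of all in healthy and 3.36% in SCE cows. Fitted values were lower at day 45 for 25 of 33 members in healthy cows (75.8%, against 47.2% of all tested). In SCE cows they were lower for 22 of 31 (71.0%, against 58.4% of all tested). The medians were -0.28 and -0.19 where all tested had 0.01 and -0.11. These fits treated the libraries of a cow as independent. With the cow as a block no member passed the adjusted threshold, and 9 members in healthy cows and 6 in SCE cows changed sign.

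In healthy cows the lowest p between days belonged to miR-2285ca, with 1.64, 3.02, 4.13, 1.42 and 11.2 at day 25 and at most 3.01 at day 45 (log2 fold change -1.34, SE 0.85, adjusted p = 0.9999). Cow 6 alone held the high day-25 value. In SCE cows it belonged to miR-2285bc (log2 fold change -0.86, SE 0.50, adjusted p = 0.705), where 5 of 11 cows were higher at day 45 and the change ran from -4.27 in cow 8 to 1.08 in cow 15.

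The change between days within a cow was often nearly as large as the difference between cows. For miR-2285k the median absolute log2 difference was 0.83 between the 2 days of a cow (16 cows) and 0.84 between cows of the same status and day (130 pairs). For miR-2285bc it was 0.81 within a cow and 1.31 between cows. By these medians miR-2284ab was the steadiest of the abundant members compared here, with 0.28 within a cow and 0.34 between cows. Single libraries of miR-2284ab still lay far apart. Its highest level was 13.5 times its lowest, and its log2 change between days ran from -1.86 in SCE cow 10 to 1.76 in SCE cow 8.

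A difference of the day effect between the statuses was not found for any member. Among 406 miRNAs tested, 44 were members, none passed the adjusted threshold (edgeR, 0% of all tested), 1 had an unadjusted p under 0.05 against 1.72% of all tested, and DESeq2 called none (0% of all), with 4 at an unadjusted p under 0.05 (3.54% of all). The member with an unadjusted p under 0.05 in edgeR was miR-2284h-5p, a scarce member with at most 20 counts in a library. Healthy cows at day 25 had 0.136, 0, 2.21, 0.250 and 1.12 TMM-normalised CPM, healthy cows at day 45 ranged from 0 to 0.519, and SCE cows from 0 to 0.679 at day 25 and from 0 to 1.65 at day 45. The log2 difference was 2.54 (SE 1.11, adjusted p = 0.988), on counts too few to place any single cow. The fit for the difference treated the libraries of a cow as independent. With the cow as a block no member passed the adjusted threshold, and 9 members changed sign.

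The number of members counted depends on depth and on what else a library holds. Brought to a common depth of 678389 counts, the expected number of members with a count was 29.4, 33.6, 26.9, 39.5 and 26.9 in healthy cows at day 25, and between 28.1 and 45.3 (median 40.7) in SCE cows, of which 7 of 11 lay above every healthy cow. At day 45 the medians were 32.8 in healthy and 35.01 in SCE cows, with overlapping ranges. At 3529740 counts, without SCE cow 10, the medians were 47.2 and 64.0 at day 25 and 54.5 and 56.3 at day 45. The share of miR-486 was 24.8% to 81.1% in the healthy and 4.001% to 79.0% in the SCE libraries of day 25, and its part in these numbers was not tested.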

How the data were processed

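Small RNA libraries from cell-free blood RNA of 17 cows were analysed, grouped by status and day from the labels. The authors deposited whole-number counts per mature miRNA name, 1 file per library. The submitters' processing notes name bcl2fastq 2.17.1.14 (demultiplexing), build UMD 3.1 and DESeq2. Aligner, counter and treatment of reads that match several names: not given in the sources used here. Per the labels' protocols, adapters were ligated to both RNA ends and the product amplified by PCR. No molecular identifiers are named, so counts are of reads after amplification.

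Healthy cow 3 had the same counts in both of its files, and the day-25 file was left out, which left 33 of 34 libraries. Status at each day and day within each status were tested in edgeR 4.0.16 by quasi-likelihood F tests (limma 3.58.1, R 4.3.3), with TMM normalisation, edgeR's default low-count filter and Benjamini-Hochberg adjusted p-values over all miRNAs tested. Status over both days used counts summed per cow. The threshold was an adjusted p of 0.05, two-sided. DESeq2 1.42.0 was an alternative. The edgeR fit of status at day 25 was run on simulated counts with large known changes and a fixed spread. The other fits were not simulated. Standard errors came from the log2 fold change and the F statistic. Levels are counts per 1000000 (CPM). Correlations used log2(TMM CPM + 0.5) of each cow's summed counts and 100000 permutations, two-sided (NumPy 2.4.6, pandas 2.3.3). The deeper library of a cow thus weighs more. Pair scatter was the chi-square of 2 names' counts over libraries divided by its degrees of freedom. The 2 libraries of a cow were compared by the correlation of their deviations from the group means. Its median over 16 cows was 0.25 for all 406 miRNAs tested and 0.38 for 44 members, and 11 of 16 cows were above 0.1. The same correlation between different cows was not computed, so these values cannot show whether the libraries pair. The pairing itself comes from the animal numbers in the labels, and the fits with the cow as a block are alternatives.

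Members named are the 12 of highest mean CPM, those counted in every library, those with nearly equal counts, and the 5 of lowest p in each comparison. The members, lists and tests were chosen with earlier results of these data known. The planned grouping by seed and the comparison of mature sequences were not run, because mature sequences were not used here, and overlap of loci and count ratios, chosen after seeing the data, took their place.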

Additional observations from a re-analysis of the deposited data

Results flagged for a closer look

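Among 52 sets of healthy libraries examined, 10 held a single highest library far from the others. The sets were leading members, the family's share and the number of members counted, at each day. The rule (Dixon's gap) assumes normally distributed values, and the levels were not log-transformed, so the number of flags was not set against chance. Several of the members share counts or correlate, so these flags are not independent. Healthy cow 4 at day 25 stood apart for miR-2284z at 817.6 TMM-normalised CPM, for miR-2285y, whose counts follow it, at 95.0, for miR-2284ab at 262.9 and for miR-2284aa at 87.7. Healthy cow 6 at day 25 stood apart for miR-2285z and miR-2285q, which share all counts, at 93.5 and for miR-2285ca at 11.2. Healthy cow 3 at day 45 stood apart for miR-2284ab at 244.1, for miR-2284y at 35.3 and for miR-2285ak-5p at 6.53. In healthy cow 4 the day-45 levels were 212 for miR-2284z, 93.4 for miR-2284ab and 21.6 for miR-2284aa. In healthy cow 6 the day-45 level of miR-2285z was 78.9, the highest of its group.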

How the results depend on the processing

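In 135 fits no member passed an adjusted p of 0.05. The lowest, 0.0599, belonged to miR-2285aa over both days with library totals, a scale on which 48 of 372 miRNAs passed at day 25 and 64 of 418 over both days, against 1 in each with TMM. With library totals 27 of 39 tested members turned at day 25, 20 of 39 at day 45 and 28 of 49 over both days. With the miR-486 covariate 18, 12 and 23 turned, and with the miR-451 covariate 10, 3 and 11. For the 5 members of lowest p in each comparison, 11 of 622 values under alternatives changed sign, leave-one-out fits included. For status at day 25, members at an unadjusted p under 0.05 numbered 13 with DESeq2, 16 of 114 without a filter (17.2% of all miRNAs in that fit), 5 of 14 with a stricter filter of 10 CPM (26.2% of all) and 7 of 39 with the miR-451 to miR-23a ratio in the model (18.8% of all). At day 45 they numbered 2 of 123 with DESeq2, 1 of 39 with library totals (16.8% of all), 8 of 123 without a filter (11.2%) and 1 of 39 with the miR-451 covariate (9.69%). Over both days they numbered 4 with DESeq2, 7 of 49 with library totals (35.9% of all), 14 of 127 without a filter (17.8%), 0 of 49 with the miR-451 covariate (13.4%) and 0 of 49 with the miR-486 covariate (2.87%). Between days they numbered 1 with DESeq2 and 4 of 108 without a filter (6.24% of all) in healthy cows, and 1 and 3 of 121 (5.56%) in SCE cows. For the difference of day effects they numbered 4 with DESeq2, 0 of 44 with library totals (2.46% of all), 8 of 127 without a filter (5.42%), 0 of 17 with the stricter filter (2.87%) and 0 of 45 with the cow as a replicate block (1.47%), which changed no call elsewhere.

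Leaving out 1 cow at a time, these numbers ran from 2 to 10 at day 25 (10 without healthy cow 5), 0 to 1 at day 45, 0 to 6 over both days (6 without healthy cow 3), 0 to 1 between days in SCE cows and 0 to 2 for the difference. The shares of all miRNAs in these fits are not given here, so the numbers are no result about the members. With all cows, 20.2% of all miRNAs tested had an unadjusted p under 0.05 at day 25 (edgeR), and 16.5% over both days. The day-45 median of members ran from -0.23 to 0.0069, the latter without healthy cow 3.

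With library totals the median log2 fold change of members was 0.53 at day 25, 0.45 at day 45, 0.62 over both days and -0.20 for the difference of day effects. Other medians that turned were 0.11 with DESeq2 at day 45, 0.000188 over both days with the miR-451 covariate and 0.028 between days in SCE cows with the stricter filter. Of the members of lowest p, those that turned with library totals were miR-2284aa (0.015 at day 25), miR-2285q and miR-2285z (0.33 at day 25, 0.031 over both days), miR-2284w (0.22 at day 45, 0.027 over both days) and miR-2285k (0.077 at day 45). Over both days miR-2285bc turned to 0.32 with the miR-486 and 0.12 with the miR-451 covariate, and miR-2285bf to -0.25 with the miR-486 covariate. The summed family fold of SCE over healthy cows, 1.52 and 1.25 by library total, was 0.646 and 0.706 after TMM, and 0.846 at day 25 without miR-486. The other causes were not tested. Depth limits the scarce members, 35 of which had under 10 counts in all. Seed grouping and sequence distances were not run.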
